A study of Mus musculus with 96 samples.

Results

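Apolipoproteins are the proteins that build, stabilise and steer the lipoprotein particles in which fats and cholesterol travel through blood. The liver makes most of them and the intestine makes several, and each gives its particle a function, as a scaffold, as a ligand for a receptor, or as an activator or inhibitor of the lipases and transferases that remodel the particle. Described here are 10 of these genes in the mouse, Apoa1, Apoa2, Apoa4, Apoa5, Apob, Apoc1, Apoc3, Apoe, Apoh and Apom, out of the 54833 features of the count table. They were picked by symbol through the GENCODE M21 annotation, and no threshold of a measured value was used. Earlier results of these data were known when they were chosen, so the counts and p-values below are no independent test of the choice.

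Total RNA depleted of ribosomal RNA was sequenced from liver, kidney, forebrain and cerebellum of male C57BL/6 wild-type mice aged 6 to 8 weeks. For sleep deprivation (SD), a revolving drum forced the animals to walk for 10 h at the time of day when mice usually sleep, and the controls (CON) had no such treatment. Each tissue was then taken at circadian times (CT) 4, 8, 12, 16, 20 and 24, with 2 libraries per tissue, treatment and time. The authors state that samples were collected under constant darkness. Times here are those of the sample titles. Outside kidney, a second label field (DD, constant darkness) set each time 4 h lower than the title. In each of the 4 tissues 12 SD libraries stood against 12 CON libraries, and 96 libraries were compared in all. Nothing in the labels says that the 2 replicates of a group were separate cages or dissections, so p-values measure the spread between these libraries, and the deprivation also included forced walking, which cannot be told apart here from the loss of sleep.

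Libraries held 24.8 M to 58.5 M counts. In the liver the 10 genes together took 2.61% ± 0.105 (s.d. of 12 libraries) of the counts in CON and 2.86% ± 0.141 in SD, and the mean share was higher in SD at 6 of 6 times. They took about 0.052% of the kidney counts in CON and about 0.0015% of the forebrain and cerebellum counts. Levels are given in CPM, counts scaled to the total of the library. Apob made up most of the liver share and of its rise, with means of 17989 CPM in CON and 19645 CPM in SD. Differences between SD and CON are log2 fold changes from edgeR's quasi-likelihood F-test, with TMM scaling (a factor per library that centres the bulk of genes), Benjamini-Hochberg adjustment over all genes tested in the tissue, and a threshold of 0.05. The scaling matters in liver, where the median gene tested differed between SD and CON by 0.0053 under TMM and by -0.13 with library sizes alone.

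Apoa1, Apoc3, Apoa4 and Apoa5 lie in 1 cluster of 43.3 kb on chromosome 9 (GRCm38, 46228580-46271919), in that order, with Apoc3 on the minus strand and the other 3 on the plus strand. Apoc1 (chromosome 7, 19689481-19692660) and Apoe (chromosome 7, 19696109-19699188) are neighbours on the minus strand. Apob is on chromosome 12 (7977648-8016835), Apom on chromosome 17 (35128997-35132050), Apoa2 on chromosome 1 (171225054-171226379) and Apoh on chromosome 11 (108343354-108414396). Apoa4 itself occupies 46240696-46243459 of chromosome 9 and is overlapped on the opposite strand by 2 genes, Gm10680 and Gm47528. Counting was set to be strand-specific. How far the counts of these antisense genes are separate from those of Apoa4 was not tested. Over all annotated pairs, antisense genes held 7.02% to 10.5% as many counts as their protein-coding partners in the liver libraries. Apoh shares its strand with an overlapping gene, Gm11656, and its count is uncertain to the extent that reads fell in the shared stretch.

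The sequence before the start of 3 genes of the cluster is shown because they share that stretch of chromosome 9 with averaged liver log2 fold changes (SD over CON) of 0.28 (Apoa1), 0.78 (Apoa4) and 0.34 (Apoa5), given in full further on. Each run ends at the base before the earliest annotated start, is taken from the RefSeq promoters of GRCm38.p6, and is written 5′ to 3′ on the plus strand of chromosome 9. Promoter entries were found for 8 of the 10 genes, and none is shown for Apoc3, which lies between Apoa1 and Apoa4. Capitals mark matches to 5 motifs that were searched on both strands in the 250 bases before each RefSeq start: CAAAGT (the core of the HNF4A site), AGGTCA (a nuclear receptor half-site), CACGTG (an E-box), TGACGT (a CRE-like core) and GTAAACA (a forkhead core).
Apoa1, chr9:46228380-46228579: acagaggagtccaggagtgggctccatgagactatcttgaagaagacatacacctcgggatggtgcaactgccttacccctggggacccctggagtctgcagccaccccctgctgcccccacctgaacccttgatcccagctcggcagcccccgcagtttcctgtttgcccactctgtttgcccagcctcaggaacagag
Apoa4, chr9:46240594-46240695: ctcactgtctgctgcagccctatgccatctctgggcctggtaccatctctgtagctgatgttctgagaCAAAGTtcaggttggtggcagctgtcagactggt
Apoa5, chr9:46268383-46268607: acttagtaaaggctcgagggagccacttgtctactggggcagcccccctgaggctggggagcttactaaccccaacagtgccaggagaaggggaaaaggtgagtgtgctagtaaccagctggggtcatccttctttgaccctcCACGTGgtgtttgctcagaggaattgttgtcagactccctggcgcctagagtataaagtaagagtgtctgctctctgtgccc

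Among the 3 windows, Apoa4 held CAAAGT, which is in 12.6% of the 32851 RefSeq promoters searched over the same length. Apoa5 held CACGTG, which is in 6.02% of them, and Apoa1 held none of the 5 motifs. TGACGT (6.47% of promoters), AGGTCA (14%) and GTAAACA (3.17%) were absent from all 3 windows. A match of letters is a description of the window and no record of binding.

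Apoa4, a lipid-binding apolipoprotein of chylomicrons and high-density lipoprotein (HDL) made in intestine and liver, was the gene of the 10 that differed most clearly with sleep deprivation. In liver at CT4 the CON libraries held 69.6 and 55.5 CPM of Apoa4 and the SD libraries 146 and 131 CPM. At CT8 they held 94.8 and 70.1 CPM in CON and 121 and 129 CPM in SD. At CT12 the values were 67.6 and 72.0 CPM in CON and 83.4 and 99.4 CPM in SD. In these first 3 times every SD library lay above every CON library of its time, with the widest gap at CT4 and a narrow one at CT12. At CT16 CON gave 68.1 and 71.5 CPM of Apoa4 and SD 86.5 and 92.1 CPM. At CT20 CON gave 66.0 and 55.2 CPM and SD 107 and 104 CPM, and at CT24 CON gave 80.1 and 57.9 CPM and SD 106 and 98.1 CPM. The groups again did not overlap at any of these times. Over all times CON ran from 55.2 to 94.8 CPM with a median of 68.8, and SD from 83.4 to 146 CPM with a median of 105, so that only the highest CON library, at CT8, reached into the SD range.

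**Figure D1:**
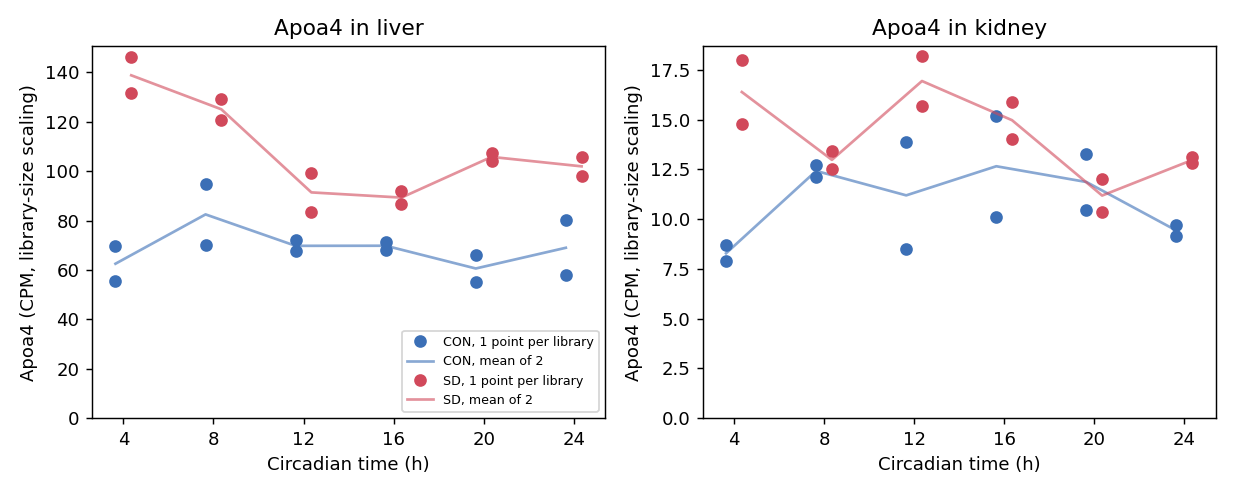
Apoa4 in liver (left) and kidney (right) in CPM (vertical axis, from 0) against circadian time in hours, with 1 point per library and lines through the mean of the 2 libraries of a group. In liver both SD points lie above both CON points at 6 of 6 times, with means of 69.0 CPM in CON and 108.7 CPM in SD, while in kidney they do so at 3 of 6 times.

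Averaged over the 6 times, Apoa4 was higher in SD liver with a log2 fold change of 0.78 ± 0.084 (SE; adjusted p = 8.15e-06), and the mean CPM was 1.57 times that of CON (108.7 ± 19.4 against 69.0 ± 10.9, s.d. of 12 libraries each). With library sizes alone the difference was 0.64 (adjusted p = 9.65e-06). Relative to the median gene it was 0.77 under either scaling. An exact two-sided permutation test on log2(CPM + 0.5), exchanging libraries within each time in all 46656 ways, gave a mean difference of 0.65 with a standard deviation of 0.297 over the 6 times and p = 4.29e-05, the smallest this design can give. Both SD libraries lay above both CON libraries at all 6 times in 16 of 19708 genes tested, or 0.0812%, in library-size CPM, and in 201 genes, or 1.02%, in TMM-scaled CPM. In such bulk samples fewer cells of a type and less RNA per cell cannot be told apart.

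At single times, with 2 libraries against 2, Apoa4 passed the threshold in liver at CT4 (1.27, SE 0.185, adjusted p = 0.0184), where 0.0101% of all genes did. The fold changes at the other times were 0.73 at CT8 (adjusted p = 0.0806), 0.58 at CT12 (0.579), 0.52 at CT16 (0.236), 0.90 at CT20 (0.367) and 0.69 at CT24 (0.0941). All 6 were above 0, and whether the CT4 difference exceeded the others was not tested. The edgeR test of a difference in 24 h rhythm between SD and CON gave Apoa4 an adjusted p of 0.9997 (unadjusted p = 0.105). The joint test over the 6 times was passed by Apoa4 (adjusted p = 0.00276) and Apoc3 (0.0484), 2 of 10 members against 3.56% of all genes. The CT4 call was lost on leaving out any one of the 4 CT4 libraries, with fold changes from 1.14 to 1.41 over all omissions of 1 liver library. DESeq2 put Apoa4 past the threshold at CT8 (adjusted p = 0.00995), CT20 (0.00406) and CT24 (0.0113) as well as CT4 (1.18e-07), where it called 0.555% of all genes at CT4.

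Besides Apoa4, 6 members were called higher in SD liver, with fold changes of 0.22 to 0.34. Averaged over time, 7 of the 10 genes were higher in SD liver and 0 were lower in edgeR's test, where 9.42% of the 19708 genes tested were higher and 8.8% lower. The 3 remaining genes, Apoa2, Apoc1 and Apoe, had no unadjusted p under 0.05, and DESeq2 called the same 7 higher (7.09% of the genes it tested) and 0 lower. The median fold change over the 10 was 0.26. With library sizes alone 4 of 10 were higher, where 1.82% of genes were higher and 19.1% lower, and the median was 0.12. Beyond Apoa4 the 6 called genes lay 0.22 to 0.34 above the median gene under TMM and 0.21 to 0.33 above it with library sizes.

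**Figure D2:**
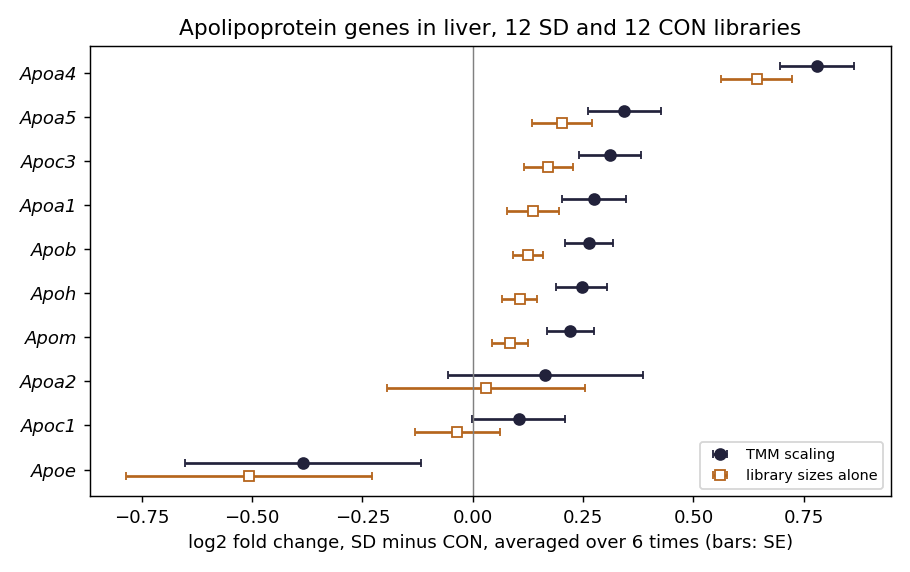
Log2 fold change of SD over CON in liver, averaged over 6 times (horizontal axis), for each of the 10 genes (vertical axis), with filled circles for TMM scaling, open squares for library sizes alone and bars of 1 standard error from 12 SD and 12 CON libraries. Apoa4 stands at 0.78, 6 genes lie between 0.22 and 0.34 under TMM, and Apoe, at -0.38 with the widest bar, is the one gene below 0 under both scalings.

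Apoa5 and Apoc3 act on triglyceride clearance from opposite sides, Apoa5 as an activator of lipolysis by lipoprotein lipase and Apoc3 as an inhibitor of it. Apoa5 in liver ranged over 12 CON libraries from 556 to 855 CPM with a median of 740 CPM, and over 12 SD libraries from 643 to 1092 CPM with a median of 805 CPM. The ranges overlapped widely, and both SD libraries exceeded both CON libraries at 3 of 6 times. The largest separation was at CT20, where CON held 744 and 843 CPM of Apoa5 and SD 1092 and 998 CPM. The averaged difference was 0.34 (SE 0.082, adjusted p = 0.00506 by edgeR), and 0.20 with library sizes (adjusted p = 0.0401).

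Apoc3 in liver ranged from 1029 to 1454 CPM in CON with a median of 1308 CPM, and from 1122 to 2002 CPM in SD with a median of 1476 CPM. Its 2 highest libraries were those of SD at CT12, with 1736 and 2002 CPM against 1454 and 1444 CPM in CON. At CT24 SD held 1559 and 1511 CPM of Apoc3 against 1158 and 1029 CPM. At CT20 they did not separate, with 1187 and 1233 CPM in SD and 1208 and 1265 CPM in CON. The averaged difference of Apoc3 was 0.31 (SE 0.071, adjusted p = 0.00353), and 0.17 with library sizes (adjusted p = 0.0312). At CT24 Apoc3 passed the threshold with library sizes (0.49, adjusted p = 0.0330), where TMM gave 0.62 and an adjusted p of 0.0802.

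Apob, the scaffold that stays with each very-low-density lipoprotein (VLDL) or chylomicron particle for its whole life, had the narrowest spread of the 10 for its level. In liver it ranged from 16903 to 19972 CPM in CON with a median of 17966 CPM, and from 17896 to 21651 CPM in SD with a median of 19902 CPM. Both SD libraries exceeded both CON libraries at 5 of 6 times in library-size CPM, the exception being CT24, and at 6 of 6 in TMM-scaled CPM. The averaged difference was 0.26 (SE 0.054, adjusted p = 0.00157), and 0.13 with library sizes (adjusted p = 0.00999).

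Apoa1, the main protein of HDL and the activator of its cholesterol-esterifying enzyme, ranged in liver from 3180 to 4549 CPM in CON with a median of 3894 CPM, and from 3473 to 5430 CPM in SD with a median of 4042 CPM. As with Apoc3, the highest libraries were SD at CT12 (5430 and 5372 CPM against 4086 and 4549 CPM). At CT24 SD held 4660 and 3848 CPM of Apoa1 against 3180 and 3189 CPM in CON. The groups of Apoa1 separated upwards at 2 of 6 times and downwards at 1, CT20, in library-size CPM. Its averaged difference was 0.28 (SE 0.072, adjusted p = 0.00974), and this call ended with library sizes alone (0.14, adjusted p = 0.103).

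Apom, an HDL protein that carries sphingosine-1-phosphate, held a liver median of 175 CPM in CON (141 to 225 CPM) and 186 CPM in SD (161 to 240 CPM). The groups overlapped, with both SD libraries above both CON libraries at 3 of 6 times in library-size CPM and at 6 of 6 in TMM-scaled CPM. The averaged difference was 0.22 (SE 0.053, adjusted p = 0.00496), and the call was lost with library sizes (0.08, adjusted p = 0.145). Apoa2, a further HDL protein, was counted in liver at 0.239 to 1.03 CPM in CON and 0.312 to 1.06 CPM in SD, or 8 to 43 counts a library, and its averaged difference was 0.16 (SE 0.221, adjusted p = 0.672).

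Apoh, also called beta-2-glycoprotein I, binds anionic phospholipids and travels partly on lipoproteins. It ranged in liver from 1236 to 1588 CPM in CON with a median of 1425 CPM, and from 1341 to 1623 CPM in SD with a median of 1594 CPM. More than the range, the position of the bulk differed, with the SD median above the highest CON library. The averaged difference of Apoh was 0.25 (SE 0.058, adjusted p = 0.00451), and with library sizes it missed the threshold (0.11, adjusted p = 0.0577).

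Apoc1 and Apoe, the neighbours on chromosome 7, did not pass. Apoc1, a small exchangeable protein that slows lipoprotein uptake, ranged from 432 to 891 CPM in CON and from 441 to 1024 CPM in SD. Its averaged difference was 0.10 (SE 0.105, adjusted p = 0.550) and turned to -0.03 with library sizes. Apoe, the ligand by which remnant particles are taken up by receptors of the low-density lipoprotein (LDL) receptor family, ranged from 0.568 to 2.32 CPM in CON and from 0.388 to 3.31 CPM in SD, a difference of -0.38 (SE 0.268, adjusted p = 0.358). Apoe and Apoa2 are abundant liver transcripts in general knowledge, so levels near 1 CPM in every liver library cannot be read as the level of their mRNA, and the reason for the low counts was not tested.

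**Figure D3:**
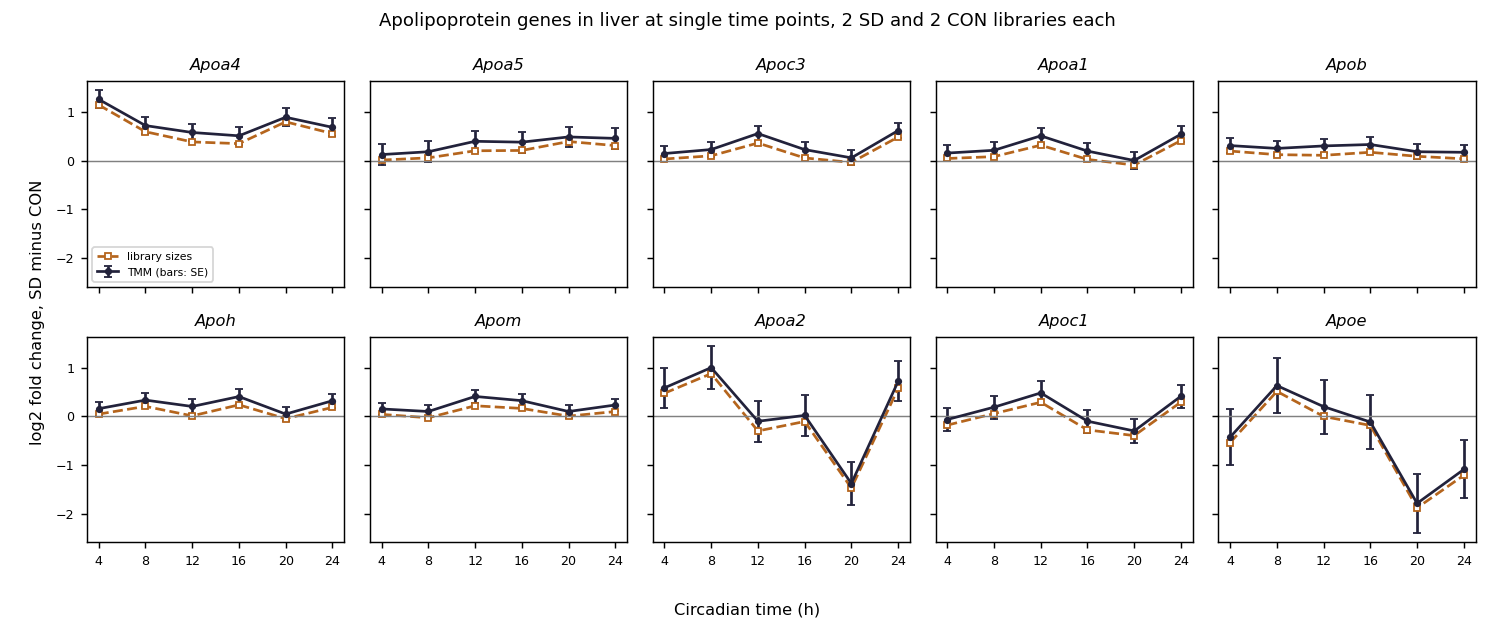
Log2 fold change of SD over CON in liver (vertical axis) at each circadian time in hours (horizontal axis), 1 panel per gene, with filled circles and bars of 1 standard error for TMM scaling, open squares for library sizes alone, and 2 SD and 2 CON libraries at each time. Apoa4 is above 0 at 6 of 6 times with its largest value, 1.27, at CT4, while Apoc3 and Apoa1 have their larger values at CT12 and CT24, and Apoa2 and Apoe, with at most 106 counts in a liver library, swing over more than 2 units.

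At CT8, CT12, CT16, CT20 and CT24 no member passed edgeR's test in liver, where 0.406%, 0, 0, 0 and 0.238% of all genes did. At an unadjusted p under 0.05 there were 3 members at CT8, 4 each at CT12, CT16 and CT20, and 5 at CT24, against 1 at CT4. Of all genes, 9.19% had such a p at CT4, 12.3% at CT8, 7.66% at CT12, 13.8% at CT16, 7.98% at CT20 and 13.3% at CT24. DESeq2 called 1 member at CT8 (1.41% of all genes), 2 at CT12 (0.123%), 0 at CT16 (0.838%), 1 at CT20 (0.0491%) and 3 at CT24 (1.43%). The SD library of CT16 replicate 1 stood apart, with a log2 TMM factor of 0.23 where the other 11 SD libraries had -0.17 to -0.051 and the 2 CON libraries of CT16 had 0.21 and 0.23. Without it, 2589 genes and 5 members passed at CT16, where 0 and 0 passed with it. The joint test then called 2278 genes and 6 members, where 702 of 19708 genes and 2 members passed with it. The averaged test called 7 members whichever 1 of the 24 liver libraries was left out.

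Time courses in liver did not reach the threshold for a 24 h rhythm in any member by the JTK test. On the 12 libraries of a treatment, 0 of 10 members were rhythmic in CON liver (0.147% of all genes) and 0 of 10 in SD liver (1.76%), with 1 member, Apom, and 2 members, Apoa4 and Apoa5, at an unadjusted p under 0.05. For Apoa5 in SD the best phase was CT20 (adjusted p = 0.110) and for Apoa4 in SD it was CT4 (adjusted p = 0.143). JTK called 0 members in the other tissues too, with 0 at an unadjusted p under 0.05, where 0.158% of genes were rhythmic in CON kidney and 0 in the other 5 groups. A cosine fit in edgeR gave Apoa4 in SD an adjusted p of 0.0129, a peak at CT 4.04 and a peak-to-trough range of 0.70 in log2, against 0.29 and an adjusted p of 0.413 in CON. That fit called 1 of 10 members in SD liver, where it called 11% of all genes, and 0 of 10 in CON liver, where it called 8.87%. The test of the difference in rhythm between SD and CON called 0 genes in edgeR and 1 gene, no member, in DESeq2, and the unadjusted p was under 0.05 for 2 members, Apoa2 and Apoe.

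Some members followed each other across the 24 liver libraries, SD and CON pooled, which share depth and scaling. The highest Pearson r in log2 CPM was 0.85, between the cluster neighbours Apoa1 and Apoc3, followed by 0.79 for Apoc3 with Apom and 0.76 for Apoc1 with Apoc3. Apoa4 had r = 0.65 with Apob, 0.36 with Apoc3, 0.21 with Apoa5 and 0.15 with Apoa1, of which the last 3 lie in its own cluster. In TMM-scaled CPM these 4 values were 0.80, 0.60, 0.49 and 0.48, and Apoa1 with Apoc3 was again the highest pair (0.91). The lowest r was -0.41, between Apoa5 and Apoc1, which was -0.07 in TMM-scaled CPM, where the lowest was -0.45, between Apoa5 and Apoe. Of all 19708 genes tested, the 5 most like Apoa4 were its antisense neighbour Gm10680 (r = 0.88), the pyruvate carboxylase gene Pcx (0.76), Gatb (0.76), the histidine-rich glycoprotein gene Hrg (0.75) and the selenium carrier gene Selenop (0.75). Gm10680 averaged 8.19 CPM in CON and 11.8 CPM in SD, or 11.9% and 10.8% of Apoa4. Both shares are just above the range given earlier for antisense genes in liver libraries, and how far its counts are separate from those of Apoa4 was not tested.

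Cell type markers were read beside these values, since a shift in cell makeup would move hepatocyte transcripts together. The summed CPM of 10 hepatocyte markers ran from 83190 to 110694 in CON liver and from 84249 to 108499 in SD liver, with 4 of 10 higher and 0 lower. The median fold change of the 10 markers was 0.22, beside 0.26 for the 10 members. Under library sizes alone 1 of the 10 markers, F2, was higher and 1, Hpx, was lower. Their median was then 0.080, beside 0.12 for the members. The sum of macrophage and Kupffer cell markers ran from 767 to 1510 CPM in CON (median 1108) and from 531 to 881 CPM in SD (median 772). In edgeR's test 5 of the 6 tested were lower in SD, among them Adgre1 (-0.62, adjusted p = 0.00120) and Csf1r (-0.44, adjusted p = 0.00110), and the seventh marker, Cd68, was at 0 in all 96 libraries of the 4 tissues. Intestinal epithelium markers summed to 31.4 to 47.6 CPM in CON and 32.8 to 50.3 CPM in SD, with Sis at 0 in both. Of the 3 tested, 1 was higher, Fabp2 (0.24, adjusted p = 0.0211), which did not pass with library sizes (adjusted p = 0.296), and Lct gave -0.99 (adjusted p = 0.0855). The part of these shifts in the member differences was not tested.

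Other genes of lipoprotein metabolism moved in part with the members. Of 9 tested apolipoprotein genes beyond the 10, 5 were higher and 2 lower in SD liver (median 0.19). Apol7a (0.32, adjusted p = 0.00120) and Apon (0.34, adjusted p = 0.00825) were among the higher ones, and the interferon-inducible Apol9a (-0.46, adjusted p = 0.00205) among the lower. Library sizes alone left 1 of the 9 higher, Apol7a, and 2 lower (median 0.055). Of 13 genes of lipoprotein assembly and secretion, 6 were higher and 1 lower (median 0.17), including P4hb, a subunit of the microsomal triglyceride transfer protein complex (0.32, adjusted p = 0.000199), its partner Mttp (0.24, adjusted p = 0.00698), the coat GTPase gene Sar1b (0.24, adjusted p = 0.00791) and the triglyceride-forming Dgat2 (0.21, adjusted p = 0.00854). Of these, P4hb also passed with library sizes alone, where 1 assembly gene was higher and 1 lower.

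Genes that remodel lipoproteins in plasma gave 6 higher and 1 lower of 12 tested (median 0.21). Lcat, which esterifies cholesterol on HDL, was higher by 0.34 (adjusted p = 0.000611), Lipc, the hepatic lipase, by 0.32 (0.000871), and the HDL-borne Pon1 by 0.35 (0.00110). Angptl4, an inhibitor of lipoprotein lipase, had the largest fold change among them, 0.91 (SE 0.224, adjusted p = 0.00611), and Gpld1 gave 0.24 (0.00205). With library sizes alone 4 were higher and 2 lower. Of 13 receptors and uptake genes, 2 were higher, the HDL receptor Scarb1 (0.26, adjusted p = 0.00233) and the remnant receptor Lrp1 (0.24, 0.00348), and 1 was lower (median 0.042). Neither passed with library sizes alone, where 0 of the 13 were higher and 2 lower, Cd36 and Apobr (median -0.092). Of 4 tested efflux transporters, Abcg1, which moves cholesterol to HDL, was lower (-0.39, adjusted p = 0.000636), and the other 3 did not pass.

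Among 21 regulators of apolipoprotein genes, 7 were higher and 0 lower (median 0.096), with Creb3l3, a membrane-bound liver factor known to drive Apoa4, at 0.31 (adjusted p = 0.00127) and Cebpa at 0.23 (0.00624). With library sizes 1 was higher, Creb3l3, and 1 lower. Of 12 listed targets of CREB3L3 and PPARA, 5 were higher and 0 lower (median 0.32), including the fatty acid importer Cpt1a (0.38, adjusted p = 0.000561) and Acadm (0.30, adjusted p = 0.00254). With library sizes 4 of these targets were still higher. Of 12 cholesterol synthesis genes 0 passed in edgeR under TMM (median -0.064), with 0 at an unadjusted p under 0.05 and 0 in DESeq2.

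Sleep deprivation was compared in kidney in the same way, with the groups taken from the sample titles, because in 20 of the 24 kidney libraries another label field gave a different treatment or time. Apoa4 held 7.89 to 15.2 CPM in CON kidney with a median of 10.3 CPM, and 10.4 to 18.2 CPM in SD with a median of 13.7 CPM. The ranges overlapped, and the clearest gap was again at CT4, with 7.89 and 8.68 CPM in CON and 14.8 and 18 CPM in SD. At CT12 SD held 18.2 and 15.7 CPM of Apoa4 and CON 8.53 and 13.9 CPM, and at CT20 both SD values, 10.4 and 12 CPM, lay below the higher CON value, 13.3 CPM. Averaged over time the difference was 0.35 (SE 0.111) and missed the threshold in edgeR (adjusted p = 0.120), while DESeq2 gave an adjusted p of 0.0426.

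Of 8 members tested in kidney, 0 passed edgeR's averaged test, where 2.3% of all genes did, 1 (Apoa4) had an unadjusted p under 0.05, and DESeq2 called 1 (Apoa4) as higher, where 0.304% of genes were. Apob, at 320 to 546 CPM in CON and 355 to 537 CPM in SD, was the most counted member there and differed by 0.024 (SE 0.078, adjusted p = 0.932). Apoc3 differed by 0.08 (SE 0.066, adjusted p = 0.638), with 14.7 to 22.4 CPM in CON and 17.2 to 23 CPM in SD. Apom, at 35.1 to 48.3 CPM in CON and 33.0 to 46.0 CPM in SD, differed by -0.09 (SE 0.062, adjusted p = 0.575). Apoc1 varied over more than a 10-fold range within each group, from 0.272 to 7.35 CPM in CON and from 0.262 to 5.24 CPM in SD, and its difference was -0.19 (SE 0.514).

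One kidney library, CON at CT20 replicate 1, held 91.4 CPM of albumin (Alb), where the other 23 held 1.69 to 12.6 CPM. The same library held 9 CPM of Apoa1, 0.909 CPM of Apoa5 and 3.50 CPM of Apoh, where the other kidney libraries reached at most 3.39, 0.183 and 1.69 CPM. Without it the kidney medians over 23 libraries were 2.15 CPM for Apoa1, 0.031 CPM for Apoa5 and 1.08 CPM for Apoh. Its Apoa4 value, 10.4 CPM, lay inside the range of the other CON libraries.

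The SD effect was compared between liver and kidney in 1 model with an interaction term. Apom differed, with an effect higher in liver by 0.30 (SE 0.083, adjusted p = 0.0229), the 1 member of 10 called where 6.49% of 22870 genes were. The averages of Apom were 177.9 CPM in CON and 188.8 CPM in SD liver, and 42.1 CPM in CON and 40.1 CPM in SD kidney. With library sizes alone the Apom term was 0.15 and did not pass (adjusted p = 0.133). For Apoa4 the term was 0.42 (SE 0.145, adjusted p = 0.0688, DESeq2 0.0256), so its larger liver effect was not separated from the kidney effect in edgeR.

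In the brain the members were near or at the limit of counting, apart from Apoc3. Forebrain Apoc3 ran from 10.7 to 17.4 CPM in CON and from 10.0 to 14.8 CPM in SD, and differed by -0.06 (SE 0.073, adjusted p = 0.865). Of 6 members tested in forebrain 0 passed the averaged edgeR test (0.0303% of all genes), and of 5 in cerebellum 0 passed (0 of all genes). No member had an unadjusted p under 0.05 in either, and DESeq2 called 0. Apob stood out in 2 forebrain libraries, with 2.49 CPM in CON at CT20 replicate 1 and 2.92 CPM in SD at CT16 replicate 2, where the median was 0.262 CPM in CON and 0.248 CPM in SD. The same 2 libraries held 6.19 and 7.31 CPM of Alb and 0.801 and 0.609 CPM of Hpx, both hepatocyte transcripts, where the other 22 forebrain libraries reached at most 2.64 and 0.333 CPM.

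In cerebellum Apoc3 ran from 8.02 to 32.8 CPM in CON and from 9.11 to 15.0 CPM in SD. The highest value came from CON at CT8 replicate 1, a library in which annotated antisense genes held 22.2% as many counts as their protein-coding partners, against 5.62% or less in the cerebellum SD libraries. The other 23 cerebellum libraries held 8.02 to 15.0 CPM of Apoc3. At CT8 Apoc3 was lower in SD (-0.89, SE 0.262, adjusted p = 0.0439), where 10.3% of all genes passed, on values of 32.8 and 15.0 CPM in CON and 15.0 and 12.6 CPM in SD. It did not pass with library sizes (adjusted p = 0.0508), and without that library the joint test over times called 36 genes in cerebellum and no member. Apoa4 had 0 counts in 24 of 24 cerebellum libraries. For a count of 0 a fixed working limit of 3 counts was used, or 0.0969 to 0.121 CPM, which is no strict maximum.

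Across tissues, liver held more of each of the 10 genes than kidney, forebrain or cerebellum in the CON libraries, and all 10 passed against each of the 3, where 68.6%, 85.9% and 87.8% of all genes differed. Counts of Apoe and Apoa2 carry the same caution in every tissue as in liver and cannot be read as the level of their mRNA. Per kb of exon the order in CON liver was Apoa1 (3072 ± 363 CPM per kb, s.d. of 12 libraries), Apob (1291 ± 58.8), Apoc3 (1271 ± 137), Apoh (897 ± 75.0), Apoc1 (886 ± 172), Apoa5 (289 ± 34.4), Apom (176 ± 21.8), Apoa4 (38.0 ± 6.03), Apoa2 (1.26 ± 0.416) and Apoe (0.782 ± 0.253). Apob and Apoc3, and Apoh and Apoc1, lay closer together than the spread over libraries, and the remaining steps down to Apoa4 were wider than it. Apoa4 was thus the lowest of the 8 members with more than 2 CPM per kb in liver.

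The step from liver to kidney differed among the members. It was smallest for Apom (2.58 in log2, adjusted p = 6.71e-25) and Apoa4 (3.17, 1.02e-23), followed by Apoe (4.19, 3.90e-17), and it exceeded 10 for Apoa1 (11.14), Apoh (10.66) and Apoa5 (12.79). Without the albumin-rich kidney CON library of CT20 replicate 1 the step of Apoa5 was 13.98. Apoa4 was lower still in forebrain and cerebellum, with a fitted step of 9.98 from kidney to forebrain (edgeR, adjusted p = 3.34e-29). It had 5 counts in all over the 24 forebrain libraries, with 20 of them at 0, and 0 counts in cerebellum. The size of this step is therefore set by the limit of counting. Apart from Apoc3, the brain side of the other steps was also near that limit. Kidney and forebrain differed in 8 members (85% of all genes), kidney and cerebellum in 10 (87.1%), with Apoe, by counts that carry the caution above, the one lower in kidney there, and forebrain and cerebellum in 3, Apoa1, Apob and Apoh (70.3%). The kidney library named above also decided Apoa5, which between kidney and forebrain gave 0.99 without it and did not pass (adjusted p = 0.0931), and between forebrain and cerebellum then passed (3.08, adjusted p = 0.00402). The call of Apoh between forebrain and cerebellum was lost on leaving out any one of 11 libraries. That of Apoa2 between kidney and cerebellum was lost on 1 omission (adjusted p = 0.276) and was not made by DESeq2 (adjusted p = 0.474). Apoa2 had 6 counts in all over the 24 kidney libraries and 1 over the 24 cerebellum libraries, SD and CON together. Apoc3 was the member that fell least from kidney to forebrain among those above 10 CPM in kidney, with a difference of 0.52 (SE 0.111, adjusted p = 3.47e-05), and its forebrain and cerebellum levels differed by 0.19 (SE 0.112, adjusted p = 0.122). Without the cerebellum CON library of CT8 replicate 1 that last difference was 0.32 (adjusted p = 0.000995).

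**Figure D4:**
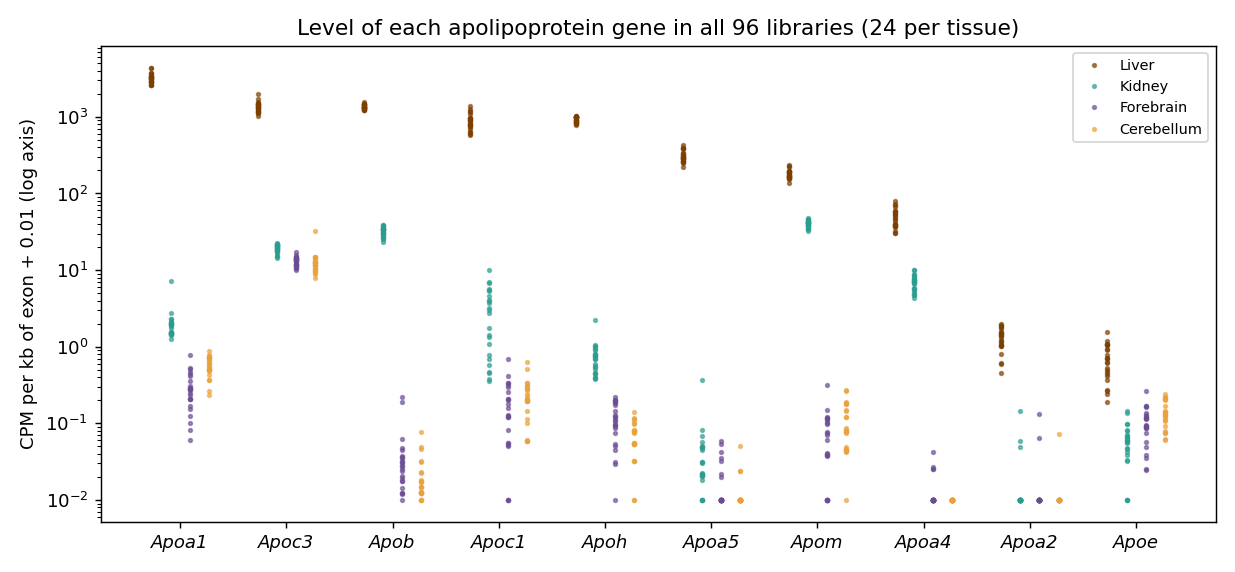
Level of each of the 10 genes in CPM per kb of exon plus 0.01 (vertical log axis) in all 96 libraries, 1 point per library, coloured by tissue, with genes in the order of their highest value. Liver points lie highest for every gene but Apoe, whose lowest liver points overlap the brain points, Apom and Apoa4 have the kidney points nearest to liver among the well-counted genes, and Apoc3 keeps 8.02 CPM or more in every library of both brain tissues.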

How the data were processed

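The authors trimmed paired-end reads of 150 bases from rRNA-depleted, strand-specific libraries with Trim Galore, aligned them to GRCm38 (mm10) with HISAT2, kept alignments of mapping quality 60 with Samtools and counted them per gene, strand-specifically, with featureCounts. The deposited table holds raw counts of the authors for 54833 features in 96 libraries, of which 49585 carry Ensembl identifiers and 5248 are numbered loci. All 96 columns were identical to the deposited single-library files, and no library was a copy of another. The annotation release behind the counts is not given in the sources used here, and names and exon lengths came from GENCODE M21. Reads that map to several places were dropped by the mapping quality filter, which lowers genes with near-identical copies.

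The tests of SD against CON were fitted for each tissue apart in edgeR 4.0.16 (R 4.3.3), with filterByExpr, TMM factors and the quasi-likelihood F-test. The averaged test had time as a factor and 1 treatment term. The single-time and joint tests had 1 mean for each of the 12 groups of time and treatment. The rhythm difference used cosine and sine terms, and the comparisons between tissues were fitted over the libraries of those tissues together. DESeq2 1.42.0, library sizes alone, median-of-ratios factors, no filter, a replicate block and the omission of each library were the alternatives, and rhythm was tested with JTK and a cosine fit. The permutation test used a pseudocount of 0.5. On simulated counts with known changes in 200 of 19708 genes, the averaged liver test recovered 94% of changes of 0.5 log2 and 99% of changes of 1, and the CT4 test 10% and 68%. The changed genes were drawn from the better-counted genes, and no time effect and no shift in scaling between SD and CON was simulated. Recovery for genes counted as low as Apoa2 and Apoe in liver was not tested. Intervals and limits from counts cover counting error only. The 10 genes, the gene lists and the rule for named genes (all 10 members, up to 20 list genes past the threshold in liver, and the 5 genes most correlated with Apoa4) were chosen with earlier results of these data known.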

Additional observations from a re-analysis of the deposited data

Results flagged for a closer look

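The effect of sleep deprivation on Apom differed between liver and kidney by 0.30 on the log2 scale (SE 0.083, edgeR interaction test, adjusted p = 0.0229). It was flagged because the difference between the tissues was itself tested and passed. Apom was the 1 member of 10 called, where 6.49% of 22870 genes were. Kidney groups were taken from the sample titles, which another label field contradicted in 20 of 24 kidney libraries. In every omission of 1 library the Apom term stayed past the threshold, from 0.26 to 0.34 (adjusted p at most 0.0442). With library sizes alone it was 0.15 and did not pass (adjusted p = 0.133), and DESeq2 gave an adjusted p of 0.00489. No cause was tested.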

How the results depend on the processing

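All 7 member calls of the averaged liver test held under DESeq2, median-of-ratios factors, no filter, the replicate block and each omission of a library, with 3 of them lost under library sizes alone. The single-time tests have 2 libraries a group. With all libraries and the filter, the liver tests covered 19708 genes and 10 members, and those of kidney 21528 and 8. Those of forebrain covered 23078 and 6, and those of cerebellum 22218 and 5. The comparison of the SD effect between liver and kidney covered 22870 genes and 10 members. DESeq2 and the tests without the filter kept every gene with a count, 32589 for DESeq2 in liver, so their counts are of larger totals. Few counts stood behind Apoa2 and Apoe, at 8 to 106 a liver library, and behind most members in brain. The cause was not tested for any change below.

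With library sizes alone 4 members passed in the averaged liver test, 1151 genes in the liver joint test, 246 at CT8, and 309 with 1 member at CT24. The kidney joint test called 53 genes, and the comparison of the SD effect between liver and kidney 2915 genes and 0 members. The difference turned to -0.034 for Apoc1 in liver and to -0.020 for Apoe between liver and kidney. Without the filter on low counts the liver joint test called 2873 genes and 8 members. By time it called 649 genes at CT4, 930 with 1 member at CT8, 330 with 2 at CT12, 767 with 1 at CT16, 513 with 2 at CT20 and 1102 with 4 at CT24. The liver rhythm difference called 409 genes and 1 member, that of kidney 38 genes and that of forebrain 1. The averaged test then called 1043 genes and 1 member in kidney and 1 gene in cerebellum, and the joint test 2705 genes and 6 members in kidney, 729 and 1 in forebrain, and 3552 and 1 in cerebellum. The comparison between liver and kidney called 5 members, and JTK 0 genes in CON liver, 160 in SD liver and 0 in CON kidney.

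DESeq2 called 181 genes at CT4 in liver, 460 with 1 member at CT8, 40 with 2 at CT12, 273 at CT16, 16 with 1 at CT20 and 466 with 3 at CT24, where edgeR called 2, 80, 0, 0, 0 and 47 genes. It called 1 member in the averaged kidney test, 13 genes in forebrain and 1 in cerebellum. It found a rhythm difference in 1 gene of liver, 4 of forebrain and 13 of cerebellum, and 2641 genes and 2 members between liver and kidney. The cosine fit called 1749 genes in CON and 2173 with 1 member in SD liver, 845 and 475 in kidney, 23 and 1 in forebrain, and 1 and 21 in cerebellum. JTK on TMM-scaled CPM called 0 genes in CON and 135 in SD liver, and 0 in CON kidney.

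The replicate numbers were not used as pairs in the main tests, and whether they mark pairs was not settled. Deviations of same-numbered CON and SD libraries correlated at -0.15 to 0.18 in liver, over 0.1 in 2 of 6 pairs, and in 4 of 6 pairs in kidney. In forebrain they correlated at -0.28 to 0.46. Those of same-numbered CON liver and kidney libraries correlated at 0.033 to 0.22, over 0.1 in 3 of 6 pairs. With the replicate block the averaged liver test still called 7 members. The block gave 443 genes and 1 member in the liver joint test, and 8 genes at CT4, 2 at CT12, 1 at CT16, 3 at CT20 and 30 at CT24.

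Leaving out 1 library at a time, the liver joint test called 312 to 2278 genes and 1 to 6 members. The counts by time ran from 0 to 44 genes and 0 to 1 members at CT4, 0 to 262 and 0 to 1 at CT8, 0 to 4 genes at CT12, 0 to 2589 and 0 to 5 at CT16, and 0 to 289 and 0 to 2 at CT24. The kidney joint test called 60 to 221 genes and 0 to 1 members, and that of cerebellum 0 to 8901 and 0 to 1. The averaged forebrain test called 3 to 9 genes, its joint test 0 to 106 and its rhythm difference 0 to 1. The liver and kidney comparison called 1048 to 2723 genes and 1 to 3 members. JTK called 0 to 0 genes in CON liver, 0 to 103 in SD liver and 0 to 0 in CON kidney.

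Differences that changed sign were all of uncalled members. In kidney Apoa1 ran from -0.060 to 0.24, Apob from -0.0099 to 0.079 and Apoc1 from -0.43 to 0.040. In forebrain Apoa1 ran from -0.033 to 0.31, Apob from -0.63 to 0.53, Apoc1 from -0.56 to 0.029 and Apoh from -0.21 to 0.14. In cerebellum Apoa1 ran from -0.16 to 0.022 and Apoe from -0.17 to 0.063. Between liver and kidney Apoe ran from -0.053 to 0.35. Between control tissues Apom ran from -0.53 to 0.050 and Apoc1 from -0.16 to 0.31 for forebrain against cerebellum, and Apoa2 from -0.82 to 1.04 for kidney against forebrain.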

Other observations

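Apobec1, the enzyme that edits Apob mRNA, was lower in SD in liver (-0.26, SE 0.067, edgeR adjusted p = 0.00941) and in kidney (-0.34, SE 0.061, adjusted p = 0.00157), also with library sizes alone (adjusted p = 0.000302 and 0.0121). Apol9a was lower in liver (-0.46, adjusted p = 0.00205) and in kidney (-0.78, SE 0.204, adjusted p = 0.0439), and its close relative Apol9b in liver (-0.26, adjusted p = 0.0439) and kidney (-0.54, adjusted p = 0.0410). The kidney calls of both Apol9 genes ended with library sizes alone (adjusted p = 0.0708 and 0.0766), and reads shared by close copies such as these were dropped by the mapping quality filter. Of the 4 macrophage and Kupffer cell markers tested in kidney, 3 were lower in SD, Adgre1 (-0.42, adjusted p = 0.000413), Timd4 (-1.22, 0.0278) and Cd5l (-1.85, 0.0413), while Csf1r gave -0.05 (0.701) and the sum of the list ran from 81.7 to 109.5 CPM in CON and from 75.0 to 102.6 CPM in SD. Library sizes alone left 2 lower, Adgre1 and Timd4, and their part in the lower Apobec1 and Apol9 values was not tested. Apobec1 and Apol9b were chosen after their values were seen. Cyp4a10, a fatty acid hydroxylase gene also chosen in that way, was higher in SD liver by 0.80 (SE 0.213, adjusted p = 0.0108).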
